A study of Homo sapiens with 6 samples.

Results

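The kinesin family was examined by RNA-seq with and without rhCYGB in MIA PaCa-2, a long-established human cell line from a pancreatic cancer. rhCYGB is recombinant human cytoglobin, a haem protein of the globin family, which was produced in E. coli. The members were all genes of the deposited table with a symbol made of KIF or KIFC, a number and at most 1 letter from A to C, which gave 42 of 35993 genes. They were placed by textbook role into 14 mitotic motors, 17 cargo transport motors, 6 motors of the cilium and 5 others. The untreated group held 3 libraries, and the rhCYGB group held 3 libraries from cells given 4 µM of the protein for 48 h. Before this, all cells had been seeded for 24 h in medium with 10% fetal bovine serum and 2.5% horse serum, and were then moved to medium with 1% fetal bovine serum. The study states in general terms that its experiments were repeated independently, but the labels do not tie the libraries of a group to separate cultures. The p-values measure the spread between these libraries, which may be technical.

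Kinesins are motors that use ATP to walk along microtubules or to take their ends apart. During mitosis, one set of them builds the spindle, moves chromosomes and prepares the cut between daughter cells, and the mRNAs of most of this set are made mainly in the G2 and M phases of the cell cycle. Another set works throughout the life of a cell and carries vesicles, mitochondria, lysosomes and mRNA. Most of its motors move towards the cell edge, while dynein carries cargo back. Some transport motors, such as KIF1A of the kinesin-3 group and KIF5A, are best known from neurons, where cargo must cross a long axon.

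Gene counts per library summed to between 34838399 and 42271299, of which the kinesins took between 56522 and 81417. The cells carried the epithelial keratins KRT8 and KRT18 and the mesenchymal filament VIM at a high level. The epithelial EPCAM and the mesenchymal CDH2 had 0 counts in every library, and the epithelial CDH1 had at most 2. Summed epithelial markers (6 genes) lay at 3863 to 4093 CPM (counts relative to the scaled library size) in untreated and 2967 to 3173 CPM in rhCYGB libraries, and mesenchymal markers (3 genes) at 7955 to 8134 and 11630 to 12137 CPM. Of the epithelial genes, KRT8 (mean 2085 and 1190 CPM), KRT19 and MUC1 fell, while KRT18 (1648 and 1694 CPM) did not pass. Nearly all of the mesenchymal sum was VIM (mean 8013 and 11744 CPM), and ZEB1 rose as well. Summed stellate and fibroblast markers (8 genes) lay at 148 to 159 CPM and then at 11.5 to 13.6 CPM, and nearly all of this was the collagen gene COL1A2 (142 and 6.86 CPM). COL3A1 also fell, ACTA2 had 5.61 and 5.30 CPM and did not pass, COL1A1, PDGFRB and DES had at most 10 counts in a library, and LUM and DCN were at 0. Endothelial and leukocyte markers (6 genes) summed to 143 to 159 CPM and then to 81.9 to 86.1 CPM, in which CDH5 fell from 117 to 12.2 CPM and CD68 rose by a log2 fold change of 0.99. VWF had at most 8 counts in a library, and PECAM1, PTPRC and CD3E were at 0. The part of these markers in the results on kinesins was not tested.

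Mitotic and transport kinesins moved apart after rhCYGB. All 12 members placed in the mitotic class that could be tested were lower at an adjusted p under 0.05, 11 of them by at least 2-fold. Their median log2 fold change was -1.48. The classes were set with earlier results of these data known. KIF2A, which also acts on spindle microtubules but was placed among the others, was higher at that adjusted p (log2 fold change 0.28). With KIF2A and KIF24 counted as mitotic, the median was still -1.48, but the class was then not lower throughout. Of 16 transport members tested, 13 were higher and 1 was lower at that adjusted p, with a median log2 fold change of 0.47, and 4 of them were at least 2-fold higher. That count was 3 with at least 10 counts in every library or with limma on log2(FPKM + 0.1) and 1 with limma on log2(FPKM + 1), where the mitotic count was 11. In the quasi-likelihood test of edgeR, with p-values adjusted by Benjamini-Hochberg over 14728 genes, 14.7% of genes were called lower and 12.4% higher when a 2-fold change was also required. With the adjusted p alone, 38.6% were lower and 39% higher, and the median log2 fold change over all genes was -0.00457. In a bulk sample, fewer cells in mitosis and less mitotic mRNA per cell cannot be told apart.

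**Figure D1:**
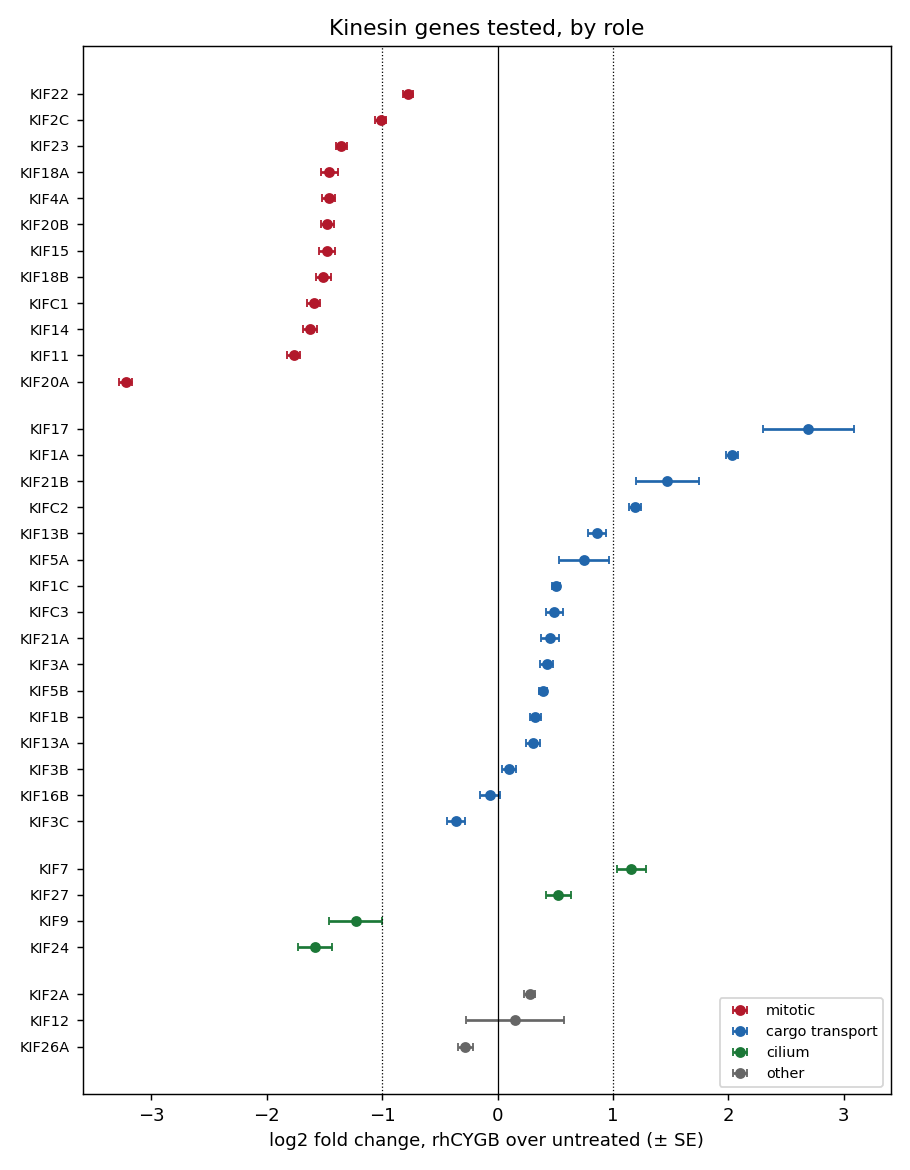
Log2 fold change of the 35 kinesin genes tested (rhCYGB over untreated, x axis), by role, with bars for the standard error of the fit and dotted lines at a 2-fold change. All 12 mitotic points lie left of 0, from -3.22 to -0.78, and the 16 transport points run from -0.36 to 2.69.

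Over the whole family, 35 members passed the filter on low counts, and 18 were called changed, 13 lower and 5 higher (background 27.1% of genes in either direction). At the adjusted p alone, 16 were lower, 16 were higher, and KIF3B, KIF16B and KIF12 did not pass, beside 77.6% of all genes that passed in either direction. The CPM values of both groups did not overlap for 32 of the 35, beside 79.5% of all genes tested. KIF2B, KIF5C, KIF19 and KIF25 had 0 counts in all 6 libraries. KIF6 and KIF26B had at most 9 counts in a library and were not tested. KIF4B, a near-identical retrocopy of KIF4A whose reads can be split with it, had at most 15 counts and was not tested either.

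The change in makeup was seen in each library. Summed over the 14 mitotic genes, the level per transcript length (FPKM, the fragments of a gene divided by its length and by the library's mapped reads) was 235, 245 and 251 in untreated libraries and 79.8, 79.1 and 82.9 in rhCYGB libraries. Summed over the 17 transport genes, FPKM was 116, 116 and 119 in untreated and 159, 154 and 169 in rhCYGB libraries. Mitotic motors thus made up 63.3% ± 0.443 (SD, n = 3) of kinesin FPKM in untreated cells and 30.4% ± 0.531 (SD, n = 3) after rhCYGB. The transport share moved the other way, from 30.5% ± 0.443 to 60.5% ± 0.365 (SD, n = 3). The sum over the whole family fell from 385 ± 10.6 to 265 ± 11.2 FPKM (SD, n = 3). In CPM, which is not scaled to length, the family sum was 1815 ± 35.8 and 1718 ± 49.0 (SD, n = 3).

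**Figure D2:**
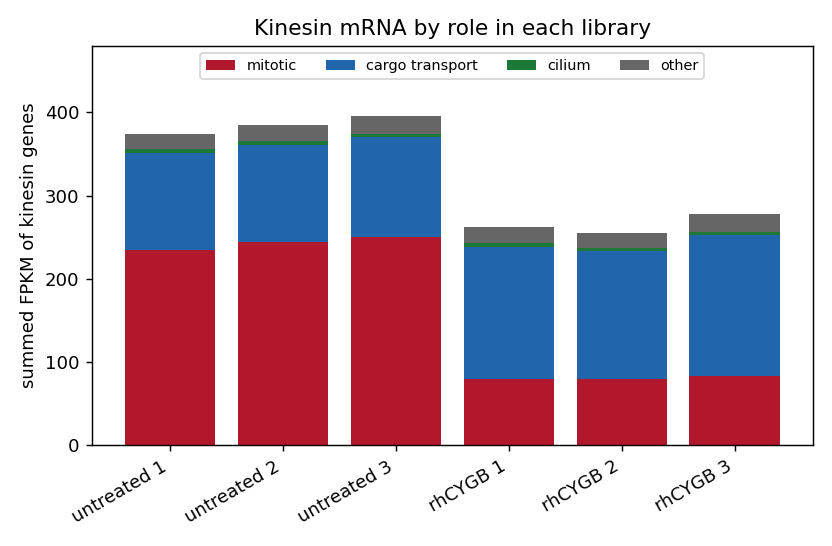
Summed FPKM of kinesin genes in each of the 6 libraries, stacked by role. The mitotic part shrinks from 235 to 251 in untreated libraries to 79.1 to 82.9 in rhCYGB libraries, while the transport part grows from 116 to 119 to 154 to 169.

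The promoters of the members were read for the letters of known cell cycle elements. Genes of the G2 and M phases often carry a cell cycle homology region (CHR), bound by the MuvB complexes, and CCAAT boxes, bound by NF-Y, close to their start. Promoters of the first listed start of each gene, from 250 bases before to 50 after it, were taken from RefSeq (GRCh38.p14), in which 34 of the 42 members had an entry. The 3 tested mitotic members with the largest fold changes are shown to the last 30 bases past the start, 5′ to 3′ along the gene, with CHR letters (TTTGAA or TTCGAA) and CCAAT in capitals. A match on the other strand reads TTCAAA or TTCGAA for the CHR and ATTGG for CCAAT.
KIF20A, chr5:138178982-138179141, plus strand: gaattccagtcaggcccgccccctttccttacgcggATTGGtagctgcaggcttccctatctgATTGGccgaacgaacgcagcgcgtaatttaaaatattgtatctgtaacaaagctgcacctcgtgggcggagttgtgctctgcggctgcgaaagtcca
KIF11, chr10:92593000-92593159, plus strand: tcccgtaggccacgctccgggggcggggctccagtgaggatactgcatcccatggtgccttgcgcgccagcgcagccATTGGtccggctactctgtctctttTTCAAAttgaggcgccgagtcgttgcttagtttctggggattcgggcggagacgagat
KIF14, chr1:200620722-200620881, minus strand: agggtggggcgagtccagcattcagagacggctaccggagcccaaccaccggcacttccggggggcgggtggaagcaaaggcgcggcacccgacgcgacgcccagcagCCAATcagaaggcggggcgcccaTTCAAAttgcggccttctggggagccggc

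CHR letters were present in 10 of the 12 tested mitotic promoters, beside 16.6% of all 27305 promoters and 1 of 11 matched transport promoters. The mitotic promoters without them were those of KIF20A and KIF2C, and the transport promoter with them was that of KIF5B. CCAAT on either strand was present in 10 of the 12 mitotic promoters, beside 35.7% of all promoters and 3 of 11 transport promoters. Both were present in 9 of the 12, beside 6.58% of all promoters and 1 of 11 transport promoters. KIF24, a cilium motor that fell, also held both, and so did KIF5B, a transport motor that rose. E2F letters (TTCCCGC or one of the variant forms TTGGCGC, then TTCGCGC, then TTGCCGC) were in 4 of 12 mitotic and 4 of 11 transport promoters, beside 13.1% of all. Letters were searched on both strands, and TTGGCGC can share letters with a CCAAT on the other strand. These matches describe letters in a fixed window and not binding. The classes were set by textbook role, and a link between the letters and the changes after rhCYGB was not tested.

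Tested motors of the mitotic class that build the bipolar spindle were all lower. KIF11 (Eg5, kinesin-5), which slides antiparallel microtubules apart and is the target of anti-mitotic inhibitors, had 92.6, 98.6 and 95.1 CPM in untreated libraries. After rhCYGB it had 25.8, 27.8 and 30.7 CPM, far below every untreated library. Its log2 fold change was -1.77 ± 0.058 (SE; adjusted p = 5.27e-13, edgeR quasi-likelihood test, Benjamini-Hochberg). KIF15, a kinesin-12 that can stand in for KIF11, lay at 25.2, 24.4 and 26.6 CPM and then at 9.13, 9.02 and 9.20 CPM, a log2 fold change of -1.48. KIFC1, a minus-end-directed kinesin-14 that bundles spindle poles and clusters extra centrosomes, went from 76.9, 82.0 and 76.3 CPM to 24.0, 26.2 and 27.8 CPM, a log2 fold change of -1.59. In FPKM, KIF11 stood 3.58 times above KIF15 in untreated cells and 2.93 times after rhCYGB, with no overlap between the libraries of both groups.

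Tested motors of the mitotic class that act on chromosomes and microtubule ends were also all lower. KIF2C (MCAK), which depolymerises microtubules at wrongly attached kinetochores, had 90.6, 95.0 and 95.8 CPM and then 43.8, 48.5 and 47.2 CPM. Its log2 fold change of -1.01 lay at the 2-fold limit, and without untreated library 3 or rhCYGB library 1 it was no longer called 2-fold lower (-0.96 without the latter). KIF18A, a kinesin-8 that damps the swings of aligned chromosomes, went from 24.9, 25.8 and 26.1 CPM to 8.56, 9.47 and 9.93 CPM. KIF18B, which shortens astral microtubules, went from 51.8, 56.3 and 54.1 CPM to 20.5, 19.1 and 17.3 CPM. The log2 fold changes of these kinesin-8 genes were -1.46 and -1.51, and the FPKM ratio of KIF18A to KIF18B was 0.599 in untreated and 0.627 in rhCYGB libraries, which overlapped. The chromokinesin KIF4A, which sets the length of the central spindle with PRC1, had 81.7, 88.0 and 92.8 CPM and then 32.1, 30.1 and 32.9 CPM, a log2 fold change of -1.46. KIF22 (Kid), a chromokinesin that pushes chromosome arms, went from 99.3, 101 and 101 CPM to 60.9, 58.4 and 55.9 CPM. With a log2 fold change of -0.78 ± 0.044 (SE; adjusted p = 2.23e-10, edgeR quasi-likelihood test, Benjamini-Hochberg), KIF22 was the one tested mitotic member under 2-fold.

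The motors of cytokinesis included the largest fall of the family. KIF20A (MKLP2), which brings the chromosomal passenger complex to the central spindle, had 122, 125 and 135 CPM in untreated libraries. After rhCYGB it had 13.4, 13.3 and 14.2 CPM, so that the libraries of a group differed little beside the gap between groups. This was a fall by 9.34-fold, a log2 fold change of -3.22 ± 0.055 (SE; adjusted p = 6.20e-16, edgeR quasi-likelihood test, Benjamini-Hochberg). KIF20A overlapped CDC23 by 74 bases in the deposited transcript positions, and CDC23 counts were 2873, 3470 and 3359 in untreated and 1119, 876 and 1093 in rhCYGB libraries. KIF20B, the related motor of late cytokinesis, went from 68.4, 69.5 and 74.3 CPM to 24.0, 27.1 and 25.4 CPM, a log2 fold change of -1.48. In FPKM, KIF20A was 3.67, 3.68 and 3.72 times KIF20B in untreated libraries and 1.15, 1.02 and 1.15 times in rhCYGB libraries. KIF23 (MKLP1), the motor of centralspindlin, had 83.6, 83.1 and 88.1 CPM and then 31.5, 33.8 and 34.5 CPM, a log2 fold change of -1.35. Its partner in that complex, RACGAP1, fell by 0.88 on the log2 scale, and the FPKM ratio of KIF23 to RACGAP1 moved from 1.07 to 0.759 without overlap. KIF14, which works with citron kinase at the midbody, went from 44.2, 47.5 and 47.0 CPM to 15.3, 14.2 and 15.5 CPM, a log2 fold change of -1.62.

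**Figure D3:**
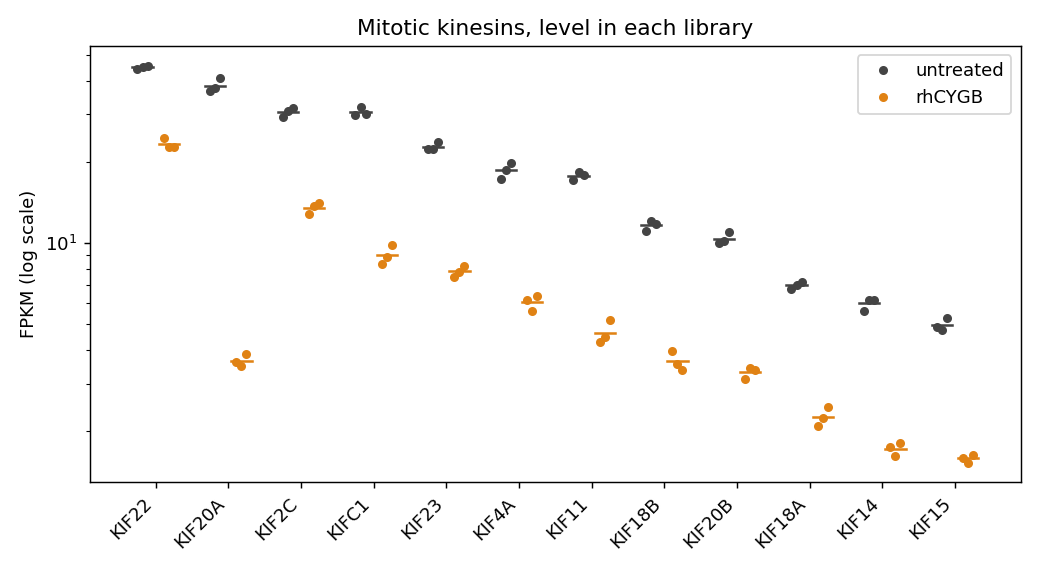
FPKM (log axis) of the 12 tested mitotic kinesins in each library, with a line at the mean of each group, ordered by untreated level. The groups overlap for none of the 12 (in CPM, they did not overlap for 79.5% of all genes tested). KIF20A drops from second place among them (38.4 FPKM) to 3.66 FPKM.

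In untreated cells the mitotic motors led the family in level per length. KIF22 was highest with 44.8 ± 0.642 FPKM (SD, n = 3), followed by KIF20A with 38.4 ± 2.26 FPKM, and KIF5B, a transport motor, came next with 34.0 ± 1.35 FPKM. KIF2C (30.6 ± 1.15 FPKM) and KIFC1 (30.6 ± 1.16 FPKM) did not differ beyond their spread. After rhCYGB the order was KIF5B with 39.8 ± 1.67 FPKM, KIF1C with 29.8 ± 0.769 FPKM, KIF1A with 26.6 ± 1.92 FPKM and KIF22 with 23.3 ± 1.01 FPKM (SD, n = 3). KIF20A held place 18. The FPKM ratio of KIF5B to KIF11, a carrier of cargo and a spindle slider, moved from 1.91 ± 0.0438 to 8.60 ± 0.653 (SD, n = 3).

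Most of the listed spindle genes with which these motors work moved in the same direction. The list was chosen with earlier results of these data known, so its counts describe the list and are no independent support. Of 24 partners (kinetochore, midzone, chromosomal passenger and spindle pole genes), 16 were at least 2-fold lower and none was 2-fold higher, beside 14.7% of all genes tested that were called lower, and the median log2 fold change was -1.25. At the adjusted p alone, 22 were lower (38.6% of all genes), and CKAP5 (-0.02), a microtubule polymerase, and KNSTRN (-0.03) did not pass. The largest falls were those of ASPM, a spindle pole protein, from 117, 123 and 135 CPM to 24.6, 29.1 and 27.1 CPM, and of BIRC5 (survivin), from 106, 110 and 112 CPM to 24.6, 25.0 and 21.6 CPM. BIRC5 belongs to the passenger complex that KIF20A carries. CENPE, a kinesin-7 of the kinetochore whose symbol lies outside the rule, had 54.1, 49.9 and 54.9 CPM and then 20.5, 18.7 and 21.7 CPM, a log2 fold change of -1.38.

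Among cargo transport motors, KIF1A rose most of those at a high level. KIF1A, a kinesin-3 that carries synaptic and dense-core vesicle precursors in neurons, had 73.0, 69.4 and 67.1 CPM in untreated libraries. In rhCYGB libraries it had 267, 286 and 303 CPM, and every treated library lay far above the untreated ones. The log2 fold change was 2.03 ± 0.050 (SE; adjusted p = 2.04e-14, edgeR quasi-likelihood test, Benjamini-Hochberg). In FPKM it moved from place 15 of the family to place 3, and its ratio to KIF1C, the broadly expressed kinesin-3, went from 0.310 to 0.891. Its ratio to KIF5B went from 0.215 to 0.668. KIFC2, a kinesin-14 found in dendrites, rose from 29.6, 28.7 and 28.7 CPM to 70.0, 62.8 and 65.7 CPM (log2 fold change 1.19). In the deposited positions it overlaps FOXH1, a gene with at most 13 counts in a library, by 791 bases.

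The other calls among transport motors rested on few reads. KIF17, a kinesin-2 of dendrites and cilia, had 29, 8 and 10 counts in untreated and 87, 72 and 114 counts in rhCYGB libraries. Its log2 fold change was 2.69 ± 0.395 (SE; adjusted p = 1.59e-05, edgeR quasi-likelihood test, Benjamini-Hochberg), and 3.57 without untreated library 1, which held the 29 counts. KIF21B, a kinesin-4 that limits microtubule growth, had 38, 41 and 37 counts and then 65, 82 and 135 counts. Its log2 fold change was 1.47 ± 0.273 (SE; adjusted p = 0.000161, edgeR quasi-likelihood test, Benjamini-Hochberg). Relative to their means, the untreated libraries of KIF17 and the treated libraries of KIF21B spread most widely. In both genes, no treated library reached down to an untreated one.

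The transport motors with the highest untreated levels rose by less than 2-fold. KIF5B (conventional kinesin heavy chain), which moves mitochondria and lysosomes, had 205, 217 and 219 CPM and then 280, 275 and 287 CPM, a log2 fold change of 0.39. KIF1C, which carries integrin vesicles and mRNA, had 201, 200 and 199 CPM and then 280, 285 and 287 CPM, a log2 fold change of 0.51. In both genes the groups did not overlap, and the gap was larger than the spread between libraries (adjusted p of 1.29e-07 and 1.97e-09 edgeR quasi-likelihood test, Benjamini-Hochberg). KIF13B (0.86), KIF5A (0.75), KIFC3 (0.49), KIF21A (0.46), KIF3A (0.43), KIF1B (0.33) and KIF13A (0.31) were also higher at the adjusted p. KIF5A, the neuronal form of KIF5B, was scarce at 1.13 to 1.45 and then 1.98 to 2.25 CPM. KIF5A and KIF13A did not pass in limma on log2(FPKM + 1), with adjusted p of 0.0929 and 0.218.

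The kinesin-2 genes, whose KIF3A and KIF3B chains pair in one motor with KIFAP3, did not change alike. KIF3A rose (log2 fold change 0.43) and KIF3C fell by 0.36 on the log2 scale. KIF3B had a log2 fold change of 0.10 (adjusted p = 0.153, edgeR quasi-likelihood test, Benjamini-Hochberg), which passed at 0.17 without rhCYGB library 1 and turned negative with total counts (-0.065). The adapter KIFAP3 had a log2 fold change of 0.11 and did not pass. The FPKM ratio of KIF3A to KIF3B was 0.443 in untreated and 0.556 in rhCYGB libraries, without overlap. KIF16B, which moves early endosomes, had a log2 fold change of -0.06 and did not pass, but passed with total counts (-0.23).

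**Figure D4:**
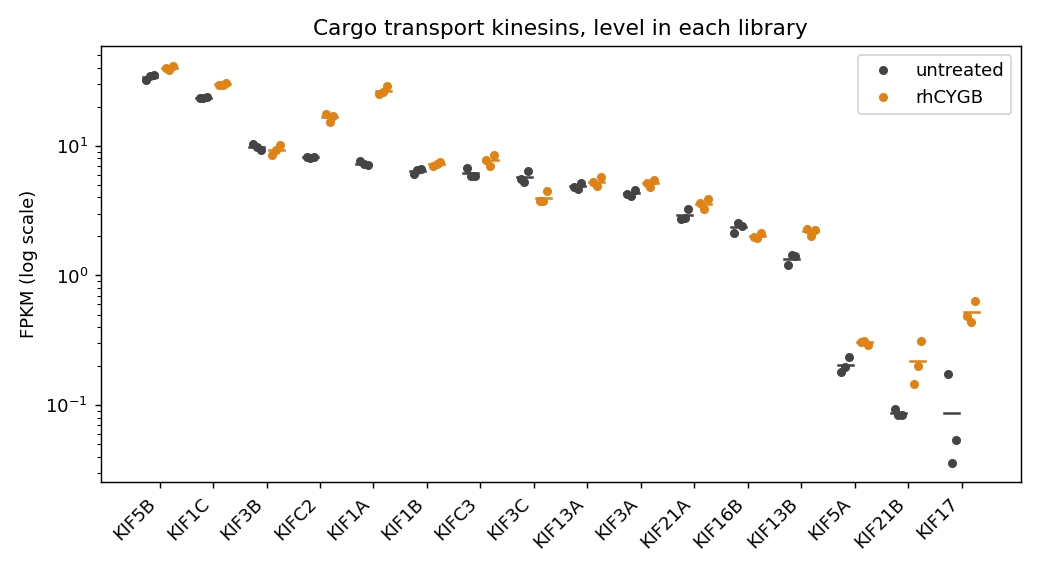
FPKM (log axis) of the 16 tested cargo transport kinesins in each library, with a line at the mean of each group. KIF1A climbs from 7.29 to 26.6 FPKM and KIFC2 from 8.16 to 16.6 FPKM, while KIF17, KIF21B and KIF5A stay below 1 FPKM.

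Adaptors and light chains of transport moved both ways. Of 26 genes listed, 24 were in the table and 23 were tested, of which 4 were at least 2-fold higher and 2 at least 2-fold lower, beside 12.4% and 14.7% of all genes. The median log2 fold change was 0.29. At the adjusted p alone, 13 were higher and 5 lower, beside 39% and 38.6% of all genes. The largest rises were SPAG9 (JIP4), a lysosome adaptor of kinesin-1 and dynein, from 212, 218 and 205 CPM to 513, 533 and 561 CPM, and PLEKHM2 (SKIP), which links kinesin-1 to lysosomes, from 108, 110 and 104 CPM to 241, 245 and 249 CPM. The kinesin light chain KLC2 also rose (log2 fold change 1.15). KLC1 (0.96) was just under 2-fold. The largest falls were RAB27A, a GTPase of secretory vesicles, from 290, 361 and 409 counts to 118, 70 and 65 counts, and HAP1, from 96, 132 and 116 counts to 18, 45 and 28 counts.

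For the opposite motor, dynein with dynactin, 25 of 28 genes were tested. Of these, 1 was at least 2-fold higher and 1 at least 2-fold lower, beside 12.4% and 14.7% of all genes, with a median log2 fold change of 0.15. At the adjusted p alone, 14 were higher and 8 lower, beside 39% and 38.6% of all genes. The largest rises were DCTN4, a subunit of the dynactin pointed end, from 71.3, 73.7 and 75.5 CPM to 196, 174 and 193 CPM, and DYNC1LI1, a dynein light intermediate chain, from 40.9, 43.8 and 39.0 CPM to 73.9, 69.1 and 72.6 CPM. The largest falls were DYNLT1, a dynein light chain, from 46.8, 50.9 and 45.8 CPM to 20.1, 19.2 and 18.3 CPM, and DCTN3, from 18.3, 19.6 and 18.5 CPM to 14.5, 14.6 and 13.2 CPM.

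The motors of the cilium, all scarce here, split by gene. KIF24, which restrains cilium assembly in cycling cells, had 240, 254 and 264 counts and then 69, 70 and 83 counts, a log2 fold change of -1.58. KIF9, a motor of moving cilia, had 162, 153 and 128 counts and then 41, 48 and 77 counts, a log2 fold change of -1.23. KIF7, which orders the cilium tip for Hedgehog signalling, rose from 171, 184 and 157 counts to 355, 273 and 377 counts, a log2 fold change of 1.16. Its relative KIF27 rose from 426, 441 and 528 counts to 697, 487 and 583 counts, a log2 fold change of 0.53. In the deposited positions KIF24 overlaps UBAP1 by 144 bases, KIF7 overlaps TICRR by 47 bases and KIF9 overlaps its antisense gene by 16091 bases. UBAP1 counts went up (1390, 1624 and 1524, then 2520, 2234 and 2615) and TICRR counts went down (824, 995 and 886, then 297, 309 and 373), each opposite to the kinesin beside it, and the antisense gene had at most 29 counts in a library. The use of strand in counting is not stated.

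Of the remaining members, KIF2A, a depolymerising kinesin-13 of interphase and spindle microtubules, had 2309, 2901 and 2817 counts and then 2950, 2559 and 3003 counts. Its log2 fold change was 0.28 and did not pass in limma on log2(FPKM + 1) (adjusted p = 0.138). It was opposite in sign to that of KIF2C of the same subfamily, and the FPKM ratio of KIF2A to KIF2C moved from 0.494 to 1.21 without overlap. KIF26A, a kinesin-11 without motor activity, had 1149, 1388 and 1380 counts and then 956, 812 and 1053 counts, a log2 fold change of -0.28. KIF12 had 10 to 13 counts in every library and did not pass the test.

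At the level of transcripts, 66 of 108 listed kinesin transcripts were tested, and 13 were called lower and 5 higher, beside 8.32% lower and 8.62% higher of all transcripts tested. Of 17 kinesin genes with more than 1 tested transcript, 2 changed unequally among their transcripts (edgeR's diffSpliceDGE, gene-level F test), beside 19.1% of all such genes. In KIF20B, transcript variant 2 held 89.0%, 94.4% and 82.7% of the gene's counts in untreated and 61.3%, 41.7% and 76.6% in rhCYGB libraries, and variant 1 held the rest. The untreated shares all lay above the treated ones, but treated libraries spread by far more (adjusted p = 0.0191, edgeR's diffSpliceDGE with Benjamini-Hochberg adjustment). This call was lost without untreated library 1 (adjusted p = 0.0806), untreated library 2 (0.0704), rhCYGB library 1 (0.0627) or rhCYGB library 2 (0.0748). The number of kinesin genes with unequal change was 5 without rhCYGB library 3, 4 without untreated library 2 and 1 without rhCYGB library 1.

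In KIF2A, variant 4 held 55.9%, 55.7% and 54.6% of counts in untreated and 55.4%, 40.6% and 44.2% in rhCYGB libraries, and variant 1 held 43.7%, 43.5% and 44.9% and then 43.9%, 40.7% and 34.2%. Variant 2 held less than 1% in 4 libraries and 18.6% and 21.2% in rhCYGB libraries 2 and 3 (adjusted p = 0.00260, edgeR's diffSpliceDGE with Benjamini-Hochberg adjustment). The rhCYGB library 1 looked like an untreated library in this gene. Counts were divided between isoforms by the authors' program, which can move reads among transcripts that share most exons.

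**Figure D5:**
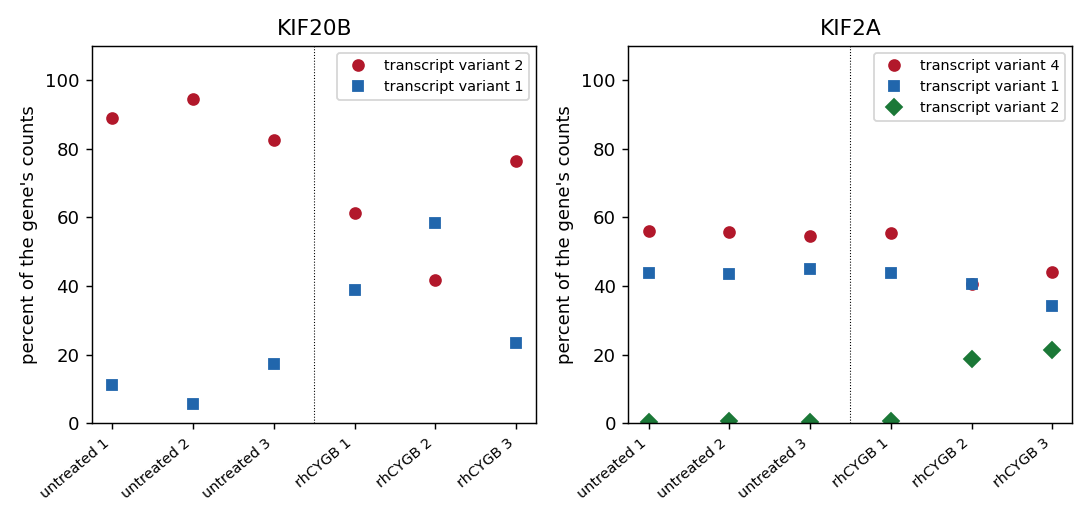
Share of the gene's counts (percent) held by each tested transcript of KIF20B and KIF2A in the 6 libraries. Variant 2 of KIF20B falls from 82.7 to 94.4% in untreated to 41.7 to 76.6% in rhCYGB libraries, and variant 2 of KIF2A is seen mainly in rhCYGB libraries 2 and 3.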

How the data were processed

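RNA was sequenced from 3 untreated and 3 rhCYGB libraries of MIA PaCa-2 cells (stranded mRNA kit, paired ends). The submitters' processing notes name FastQC 0.11.7, HISAT2 2.1.0, StringTie 2.1.3b and a mouse genome build (mm10), although the deposited transcripts are human RefSeq entries. The files name no build, so positions from them served only to find overlapping genes. The authors deposited read counts per gene and transcript, which are not normalized, and FPKM values scaled to transcript length and depth. TPM values were also deposited, in 6 columns per table, and are not used here.

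Genes were filtered with filterByExpr, scaled with TMM factors and fitted over all genes with the quasi-likelihood test of edgeR 4.0.16 in R 4.3.3, with no block. Calls needed an adjusted p (Benjamini-Hochberg) below 0.05 together with a change of at least 2-fold. CPM values use TMM-scaled library sizes, in which 3 counts correspond to 0.0669 to 0.0902 CPM. The common dispersion over all genes was 0.00300, a coefficient of variation of 5.48% between libraries of a group beyond counting error, so small changes passed. Single genes, above all scarce ones, could vary by more. FPKM is not TMM-scaled, so rises are smaller and falls larger in FPKM than in CPM. Transcripts were tested likewise, with diffSpliceDGE for unequal change. Every pair of libraries within a group differed beyond counting error (chi-square over degrees of freedom of 4.81 to 6.88). The floor of 3 counts covers counting error only. The fit was tested on simulated data.

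The members, roles and partner lists were chosen with earlier results of these data known. Per-library values are given for each tested mitotic member, for the 4 members of each other class with the largest fold changes, for the 3 transport members with the highest FPKM and for the 2 largest rises and falls of each partner list. Of genes with unequal change among transcripts, up to 4 are given, and promoters of 3 mitotic members are printed. Other members are named with their fold changes. Some genes of the partner lists are not reported here by name. Alternatives were DESeq2 size factors, upper-quartile factors, total counts, the Wald test of DESeq2 1.42.0, limma 3.58.1 on log2(FPKM + 1) and log2(FPKM + 0.1), no count filter, at least 10 counts in every library, counts summed from transcripts, a replicate block, other role assignments and leaving out each library.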

Additional observations from a re-analysis of the deposited data

How the results depend on the processing

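Each library in turn left out, the number of kinesins called was 17 to 18, of all genes called 3982 to 4101 and of kinesin transcripts called 15 to 19, the mitotic median log2 fold change was -1.51 to -1.44, and the transport median was 0.42 to 0.50. Kinesin genes with unequal transcripts numbered 1 to 5 in the same runs, 1 with at least 10 counts in every library (KIF2A then had an adjusted p of 0.783 from diffSpliceDGE, its variant 2 being untested) and 1 with the replicate block (KIF20B then had an adjusted p of 0.109). No pairing by library number was visible, as deviations of same-numbered libraries correlated at -0.048, 0.0072 and 0.0055. With so few libraries, these values cannot show whether same-numbered libraries shared a culture or day. With the replicate block, 3978 genes, 18 kinesins and 14 kinesin transcripts were called. The adjusted p alone called 32 kinesins. Upper-quartile factors, total counts and limma on log2(FPKM + 0.1) shifted the median of all genes to -0.15, -0.17 and -0.15. The mitotic median was then -1.62, -1.64 and -1.62, and the transport median 0.33, 0.31 and 0.31. With limma on log2(FPKM + 1), which understates low genes, 1997 genes and 12 kinesins were called and the transport median was 0.22. The transport median was 0.41 without KIF21A, KIF21B, KIFC2 and KIFC3. The split of called genes was 2165 lower and 1833 higher, but 2719 and 1395 with total counts and 2633 and 1448 with upper-quartile factors. KIF3B changed sign to -0.042 with upper-quartile factors, -0.065 with total counts, and -0.060 and -0.066 with limma at pseudocounts of 1 and 0.1. KIF12 changed sign to -0.0099 with total counts and to -0.000478 and -0.00466 with limma. With limma on log2(FPKM + 1), KIF21B had an adjusted p of 0.0550, and KIF5A, KIF13A and KIF2A did not pass with either pseudocount. KIF16B passed at -0.21 with upper-quartile factors and -0.23 with total counts. KIF7 was just under 2-fold with total counts (0.99). Of 559 recomputed fold changes of single kinesins, 542 kept their direction and their side of an adjusted p of 0.05, whatever their size. Some of these crossed the 2-fold limit: with limma on log2(FPKM + 1), KIF17 (0.48), KIFC2 (0.94), KIF7 (0.54), KIF9 (-0.54) and KIF24 (-0.59) were under it, with limma on log2(FPKM + 0.1) KIF21B (0.73) and KIF7 (0.91) were, and KIF2C was without untreated library 3 or rhCYGB library 1.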

Other observations

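The KIF1B transcripts, chosen after their values were seen, showed how unevenly counts were placed between isoforms. Transcript variant 1 of KIF1B, a kinesin-3 of mitochondria and synaptic vesicles, was listed with 0 counts in untreated libraries 1 and 3 but with 1416 counts in untreated library 2. In rhCYGB libraries it held 1311, 1245 and 1402 counts. Variant 3 held 1071 counts in untreated library 1, and variant 4 held 1217 counts in untreated library 3. Elsewhere these variants had at most 10 counts in a library. Variant 2 was present in all 6 libraries, with 1137, 1392 and 1340 counts and then 1446, 1353 and 1506 counts. In KIFC3, variant 2 held 83.6%, 52.2% and 72.2% of the gene's counts in untreated and 67.7%, 63.7% and 87.0% in rhCYGB libraries, so that the libraries of a group differed by more than the groups.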
